A study of Mus musculus with 12 samples.

Results

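Osteoblast-like MC3T3-E1 cells that had received 25-hydroxyvitamin D (25(OH)D) together with ZK191784 were compared, gene by gene, with cells that had received 25(OH)D together with extra beta-glycerophosphate (BGP). The comparison used the 3 libraries labelled with 25(OH)D and ZK191784 and the 3 labelled with 25(OH)D and BGP, 6 of the 12 libraries of the series. The MC3T3-E1 line, wild type per the labels, came from mouse calvaria and consists of pre-osteoblasts that lay down and mineralize a collagen matrix in osteogenic medium. All groups were kept in medium with 10 mM BGP, 50 µg/ml ascorbic acid and 0.1 µM dexamethasone, a synthetic glucocorticoid, and were taken at day 28. From day 27, for 24 h, both groups received 25(OH)D at a labelled dose of 100 µM, a unit that could not be checked here. One group received 4 mM BGP with it, and the other 100 µM ZK191784. The remaining 6 libraries were 3 of untreated cells (control) and 3 of cells given 25(OH)D alone. No group received ZK191784 or the extra BGP without 25(OH)D. A difference between these 2 groups can come from either addition. For a few genes the difference of each group from 25(OH)D alone is given beside it.

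25(OH)D is the circulating form of vitamin D. Cells that express the 1-alpha-hydroxylase CYP27B1 turn it into the active hormone, which binds the vitamin D receptor (VDR), and the receptor with its retinoid X receptor partner raises or lowers transcription of target genes. ZK191784 is known as a synthetic ligand of the vitamin D receptor that can oppose the natural hormone in some tissues. BGP is a phosphate donor: alkaline phosphatase frees phosphate from it, which feeds mineral growth, and phosphate and active vitamin D both act on FGF23, the bone hormone named in the title of the study. In osteoblasts the active hormone is known to raise osteopontin (Spp1) and to hold down bone sialoprotein (Ibsp) and other genes of the bone-forming state.

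The libraries were made by a 3' mRNA-seq method and held between 3318723 and 5170980 counts. The BGP group had 3318723, 4970950 and 5170980 counts and the ZK191784 group 5072719, 4161006 and 4382638. No label says whether the 3 replicates of a group came from separate cultures, so every p measures only the spread between these libraries, which may be technical. Libraries within each group differed along an axis on which ribosomal protein transcripts move against pseudogene and Gm-numbered ones. The log2 ratio of these counts ran from −1.75 to −0.53 in the BGP group and from −1.67 to −0.87 in the ZK191784 group, so the groups overlapped on it. The cells carried the markers of their label. The summed level of 26 osteoblast genes was 75130 to 81840 CPM (counts scaled to library size, with TMM factors) in the BGP libraries and 78580 to 90700 CPM in the ZK191784 libraries. Most of the BGP sums came from Spp1, and most of the ZK191784 sums from Sparc and Col1a1. The similar sums therefore do not mean similar levels of single genes. Of 13 myogenic markers 2 were tested and Myod1 and Myog had 0 counts in all 6 libraries, as had the endothelial genes Cdh5 and Cldn5 and the macrophage gene C1qb. The other members of these lists were not all absent. The 13 myogenic markers summed to 33.8 to 90.3 CPM with BGP and 40.9 to 84.1 CPM with ZK191784, the 14 endothelial markers (5 tested) to 138 to 163 CPM and 132 to 141 CPM, and the 21 macrophage and osteoclast markers (9 tested) to 335.5 to 502 CPM and 370.5 to 510.1 CPM. The part of other cell types in the results was not tested. In bulk libraries such as these, fewer cells of a type and less RNA per cell cannot be told apart.

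Of 14394 genes tested, 468 (3.25%) were called, which here means an adjusted p (Benjamini-Hochberg, over all genes) under 0.05 by edgeR's quasi-likelihood test. Higher with ZK191784 were 231 genes (1.6%) and lower 237 (1.65%). Calls of at least 2-fold numbered 162 higher and 159 lower, and calls of at least 4-fold 45 higher and 67 lower. The median absolute log2 difference of the called genes was 1.32, while the median log2 difference over all genes tested was 0.02. In all 468 called genes the 3 libraries of one group lay wholly above those of the other, which was so for 2467 of the 14394 genes tested. Leaving out 1 library gave between 234 and 379 calls, the fewest without ZK191784 library 2. Without ZK191784 library 1 there were 258, without its library 3 295, and without BGP library 3 255. In 197 genes, 98 higher and 99 lower, the call held whichever of the 6 libraries was left out. Adding the ribosomal ratio of each library to the model, a choice made after seeing the data, gave 1603 calls, among them all 468. The plot of difference against level places Ibsp, Sparc, Col1a1 and Car3 among the abundant genes that were higher with ZK191784, and Spp1, Hp and Igfbp5 among those that were lower.

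Set against the libraries of 25(OH)D alone, the addition of ZK191784 gave 508 calls (3.53% of the 14394 genes) by edgeR, 205 higher and 303 lower, and 700 by DESeq2. The addition of BGP gave 0 calls (0%) by edgeR and 0 by DESeq2, with 268 genes at an unadjusted p under 0.05. These differences share the libraries of 25(OH)D alone with each other and an arm each with the comparison of ZK191784 and BGP, so they are values beside it and no separate evidence. Ibsp differed from 25(OH)D alone by 5.65 ± 0.40 with ZK191784 (adjusted p = 9.35e-06) and by 0.39 ± 0.34 with BGP (adjusted p = 1.000). For Spp1 the values were −2.22 ± 0.14 (4.00e-06) and 0.11 ± 0.13 (1.000), and for C3 −6.94 ± 0.41 (2.64e-06) and −0.82 ± 0.31 (1.000). A p that misses the threshold does not show that the extra BGP left these genes as they were.

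**Figure D1:**
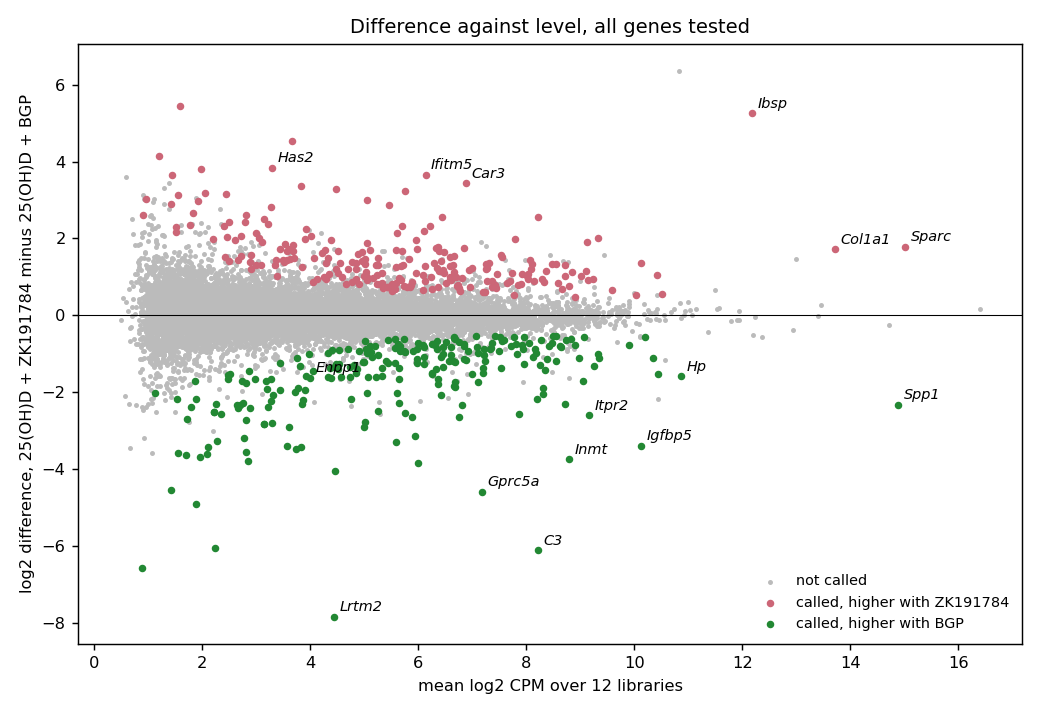
Each point is 1 of the 14394 genes tested, with its mean log2 CPM over 12 libraries on the x axis and its log2 difference, 25(OH)D with ZK191784 minus 25(OH)D with BGP, on the y axis; coloured points are the 231 genes called higher and the 237 called lower with ZK191784. Ibsp and Spp1 lie far from 0 at high levels, in opposite directions, and the grey point near the top is Plekhh2, which was not called.

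Ibsp and Spp1, which encode the acidic matrix phosphoproteins bone sialoprotein and osteopontin and sit in one gene cluster on chromosome 5, moved in opposite directions. Ibsp stood at 98.5, 152 and 114 CPM in the BGP libraries and at 5764, 4694 and 3504 CPM in the ZK191784 libraries. Every ZK191784 library was far above every BGP library, and the group means were 4654 ± 1131 and 121 ± 27.6 CPM (mean ± SD, n = 3 each). The log2 difference of 5.26 ± 0.40 (SE) amounted to a 38.3-fold higher level (edgeR adjusted p = 1.90e-05). The cells given 25(OH)D alone held 117, 109 and 52.0 CPM, near the BGP libraries, and the control libraries 9902, 10940 and 20190 CPM, above all others. Spp1 stood at 55820, 50350 and 60980 CPM with BGP and at 11500, 10540 and 11210 CPM with ZK191784. The groups were again wholly apart, here with the BGP libraries on top, and the log2 difference of Spp1 was −2.33 ± 0.14, a 5.03-fold lower level with ZK191784 (adjusted p = 2.93e-06). With 25(OH)D alone Spp1 was at 49000, 47560 and 58090 CPM and in control at 3144, 3857 and 3184 CPM, so the ZK191784 libraries lay between these 2 groups. Both calls held whichever library was left out. Mepe, a further member of this cluster, had a log2 difference of 3.32 ± 0.95 (adjusted p = 0.0950) and was not called. It stood at 0.281 ± 0.486 CPM with BGP and 2.58 ± 0.592 CPM with ZK191784.

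The 250 bases before the start sites of Ibsp, Spp1 and C3 are shown. Ibsp and C3 gave some of the largest differences, in opposite directions. The log2 difference of Spp1 (−2.33) was smaller, at a high level of expression. The sequences were read from RefSeq on build GRCm38.p6, while the submitters' processing notes name mm39 for the counts, and no position was carried between the builds. Each is written 5′ to 3′ on the gene's own strand and ends at the base before the start site, from chr5:104299037-104299286 (plus strand) for Ibsp, chr5:104434861-104435110 (plus strand) for Spp1 and chr17:57228137-57228386 (minus strand) for C3. Capitals mark matches, on either strand, to the letters TATAAA (a core promoter box), CCAAT (the box of that name), TGTGGT (RUNX), TTGCNNAA (C/EBP), TGANTCA (AP-1) and AGGTCA (nuclear receptor half-site).
Ibsp: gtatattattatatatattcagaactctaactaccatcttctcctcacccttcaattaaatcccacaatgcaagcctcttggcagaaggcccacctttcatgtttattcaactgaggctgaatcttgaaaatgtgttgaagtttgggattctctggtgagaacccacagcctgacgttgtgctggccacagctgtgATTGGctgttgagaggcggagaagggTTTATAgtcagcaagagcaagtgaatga
Spp1: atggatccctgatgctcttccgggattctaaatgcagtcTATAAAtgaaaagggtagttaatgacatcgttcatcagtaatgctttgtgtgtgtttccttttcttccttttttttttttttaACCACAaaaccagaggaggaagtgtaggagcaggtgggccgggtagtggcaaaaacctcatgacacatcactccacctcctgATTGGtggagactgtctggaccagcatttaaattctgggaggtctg
C3: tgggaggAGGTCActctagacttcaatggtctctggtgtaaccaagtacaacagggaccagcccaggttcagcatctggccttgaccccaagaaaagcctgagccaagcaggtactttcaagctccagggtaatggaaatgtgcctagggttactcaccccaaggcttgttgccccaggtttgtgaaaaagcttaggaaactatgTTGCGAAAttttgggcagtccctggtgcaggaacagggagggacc

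The Ibsp promoter held TATAAA at −28, counted from the start site, and CCAAT at −54, both on the minus strand. In Spp1 TATAAA lay at −211 on the plus strand, TGTGGT at −128 and CCAAT at −46 on the minus strand. In C3 TTGCNNAA lay at −45 and AGGTCA at −243, both on the plus strand. Promoters were matched for 159 of the 231 higher genes, 160 of the 237 lower genes and 9522 of all genes tested, with 1 start site a gene. TTGCNNAA, the C/EBP letters, was present in 15.6% of the promoters of lower genes, 5.03% of those of higher genes and 7.24% of all. TATAAA was present in 11.9%, 13.2% and 6.72% in the same order, AGGTCA in 14.4%, 9.43% and 10%, and TGANTCA in 3.12%, 6.29% and 4.22%. CCAAT was found in 35%, 37.7% and 36.5% and TGTGGT in 8.12%, 7.55% and 10.6%. The spaced direct repeat of the classical vitamin D response element was searched only as a fixed string, with no letter free outside its spacer. It had 0 matches in the 9522 windows. A fixed string that long is rarely met in so short a window, so this count cannot show that such elements are absent. No 2 of the matches marked above share letters. These shares describe letters in a short window, were not tested, and say nothing of whether a factor was bound.

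Of 24 genes of osteoblast differentiation tested, 10 were higher with ZK191784, 1 was lower and 13 were not called, with a median log2 difference of 1.28, against 0.02 and 3.25% called over all genes. Leaving out 1 library gave 7 to 10 higher. Runx2, the transcription factor that commits cells to the osteoblast lineage, stood at 70.4, 70.9 and 69.4 CPM with BGP and at 181, 151 and 145 CPM with ZK191784. The ZK191784 libraries were all higher, and 2 of them lay within the range of the control libraries (148, 188 and 189 CPM). Runx2 rose by 1.18 ± 0.16 on the log2 scale (adjusted p = 0.00112). Ifitm5, a membrane protein gene restricted to bone-forming cells, was at 7.29, 7.28 and 4.43 CPM with BGP and at 78.4, 85.8 and 75.5 CPM with ZK191784, a 12.7-fold higher level (3.66 ± 0.24, adjusted p = 4.57e-06). Sparc, which encodes the collagen-binding protein osteonectin, went from 13930, 8948 and 9654 CPM to 35620, 37240 and 39360 CPM (1.79 ± 0.23, adjusted p = 0.000865). In both the groups did not overlap, and in both the control libraries were higher still. Dlx5 and Mef2c, transcription factors of the lineage, rose by 1.95 ± 0.23 and 1.57 ± 0.19 (adjusted p = 0.000440 and 0.000493); these were chosen after their values were seen. The remaining higher members were Col1a1, Ibsp, Omd, Pth1r and Smpd3, and the 1 lower member was Spp1.

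Not every gene of the bone-forming state was called. Bglap, which encodes the late osteoblast hormone osteocalcin, was at 231, 437 and 389 CPM with BGP and at 1157, 1228 and 727 CPM with ZK191784. The groups did not overlap, but the difference of 1.56 ± 0.42 missed the threshold (adjusted p = 0.0759), and reads may be split with its close copies. Alpl, the alkaline phosphatase that frees phosphate from BGP, was at 49.1, 54.4 and 33.2 CPM against 24.2, 32.8 and 27.0 CPM, with all ZK191784 libraries lower (−0.70 ± 0.21, adjusted p = 0.111). Sp7, the transcription factor osterix, differed by 0.86 ± 0.65 (adjusted p = 0.854). Bglap and Alpl were called by DESeq2.

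**Figure D2:**
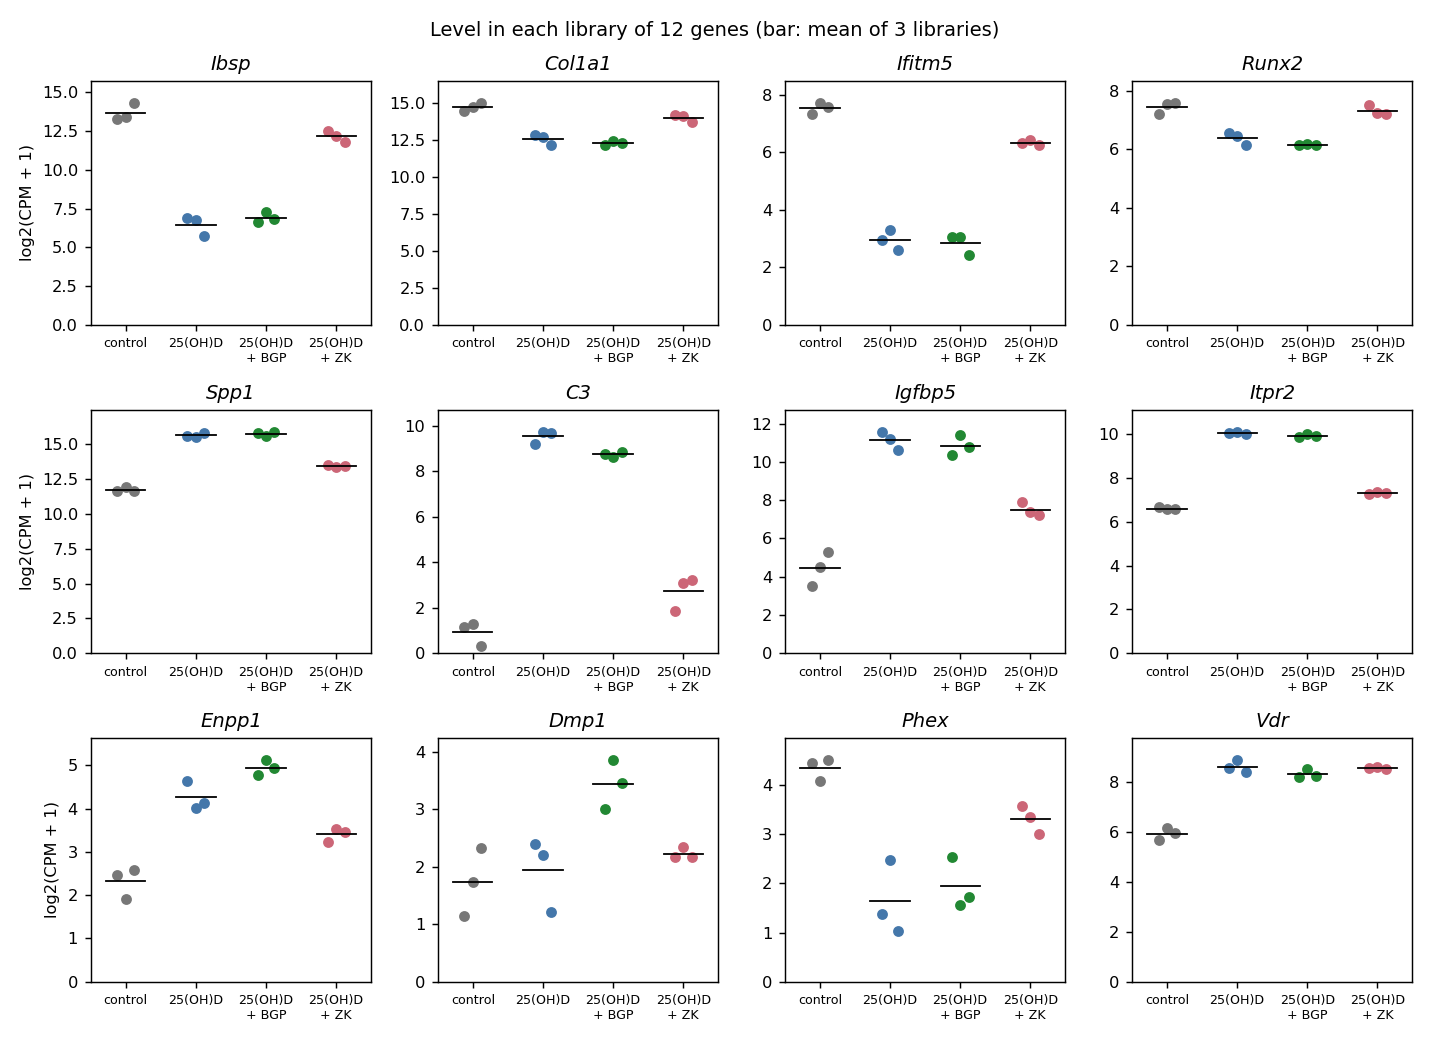
Each panel shows 1 gene, with log2(CPM + 1) on the y axis from 0 and the 4 groups on the x axis; points are the 3 libraries of a group and bars their mean. In Ibsp, Ifitm5, Spp1, C3, Igfbp5 and Itpr2 the BGP libraries sit beside those of 25(OH)D alone and the ZK191784 libraries lie toward the control, while Vdr lies between 298 and 476 CPM in the 3 groups that received 25(OH)D.

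Every collagen chain that was called was higher with ZK191784. Of 26 tested 9 were higher and 0 lower, and 22 had a difference above 0, with a median of 0.91 on the log2 scale. Leaving out 1 library gave 6 to 9 higher and 0 lower, and the 6 compared libraries fitted alone gave 8 higher and 1 lower. Col1a1, the main chain of bone collagen, stood at 4520, 5328 and 4952 CPM with BGP and at 17960, 17560 and 13120 CPM with ZK191784, with 22490, 26790 and 31740 CPM in control. The ZK191784 libraries were all higher than the BGP libraries and lower than the control libraries, and the difference from BGP was 1.72 ± 0.20 (adjusted p = 0.000436). Col3a1, a fibrillar chain of soft matrix, went from 174, 252 and 186 CPM to 934, 877 and 649.9 CPM, 4.01-fold higher (2.00 ± 0.22, adjusted p = 0.000307). Col11a1 and Col11a2, which nucleate thin fibrils, rose by 1.90 ± 0.15 and 2.15 ± 0.26 (adjusted p = 2.44e-05 and 0.000579). Col2a1, the major cartilage chain, had 1.12, 2.57 and 1.93 CPM with BGP and 26.8, 17.6 and 15.2 CPM with ZK191784 (3.36 ± 0.51, adjusted p = 0.00251), and all these 5 calls held whichever library was left out. Also higher were Col5a1, Col6a1, Col6a2 and Col22a1, of which Col6a2 held in the same way. Col5a1 was lost without ZK191784 library 1 or 2 or BGP library 1 or 3 (adjusted p from 0.0891 to 0.122). Col6a1 was lost without ZK191784 library 1 or 2 or 3 or BGP library 1 or 3 (adjusted p from 0.0891 to 0.203). Col22a1 was lost without ZK191784 library 1 or 2 or 3 or BGP library 2 or 3 (adjusted p from 0.0874 to 0.165). Col1a2, the partner chain of Col1a1, differed by 1.45 ± 0.44 but varied between libraries and was not called (adjusted p = 0.124). It stood at 3607 ± 2192 CPM with BGP and 9884 ± 3409 CPM with ZK191784. The basement membrane chains Col4a1 and Col4a2 differed by 0.25 ± 0.25 and 0.68 ± 0.31 and were not called. Of 5 chondrocyte markers tested, Col2a1 and Hapln1 were called and Sox9 was not (0.27 ± 0.39). The cartilage genes Col9a1, Matn1 and Chad had 0 counts in all 6 libraries. The summed level of 18 chondrocyte markers was 104 to 177 CPM with BGP and 151 to 283 CPM with ZK191784, so the groups overlapped.

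Genes whose products shape collagen fibrils were called in both directions. Of 26 collagen crosslinking and modifying enzymes tested, 3 were higher, 2 lower and 21 not called (median 0.32). Pcolce, which helps cleave the procollagen tail, was at 144, 168 and 134 CPM with BGP and 335, 375 and 318 CPM with ZK191784 (1.20 ± 0.13, adjusted p = 0.000295), and the folding enzyme gene Fkbp10 rose by 0.93 ± 0.15 (adjusted p = 0.00415). Pcolce2 rose by 2.43 ± 0.45, a call lost without BGP library 3 (adjusted p = 0.0566). Tgm2, which encodes a protein-crosslinking transglutaminase, went the other way, from 163, 239 and 178 CPM to 35.0, 41.0 and 38.9 CPM, and fell by 2.34 (SE 0.19, adjusted p = 2.77e-05). In Tgm2 the control libraries held only 3.84, 5.27 and 4.52 CPM, and the ZK191784 libraries lay between them and the BGP libraries. Plod1, a lysyl hydroxylase, was the other lower member (−0.92 ± 0.18), a call lost without ZK191784 library 1 or 2 or BGP library 1 or 3 (adjusted p from 0.0520 to 0.0888).

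Of 10 small leucine-rich proteoglycans tested, which bind collagen and tune mineral growth, 3 were higher and 0 lower (median 0.70). The number higher was 1 without ZK191784 library 1 or BGP library 1 or 3. The number lower was 0 to 1 with 1 library left out, and 1 with the 6 compared libraries fitted alone. Aspn, which encodes asporin, was at 1.96, 7.92 and 5.01 CPM with BGP and 50.0, 41.5 and 30.7 CPM with ZK191784, 7.98-fold higher (3.00 ± 0.39, adjusted p = 0.000865). Ogn and Omd, which encode osteoglycin and osteomodulin, rose by 1.54 ± 0.34 and 3.25 ± 0.66. The call of Ogn was lost without ZK191784 library 1 or 2 or BGP library 1 or 3 (adjusted p from 0.0743 to 0.130), and that of Omd without ZK191784 library 1 or BGP library 1 or 3 (adjusted p from 0.0703 to 0.0944). The abundant members Bgn and Dcn, biglycan and decorin, differed by 0.11 ± 0.19 and 0.35 ± 0.31 and were not called (adjusted p = 1.000 and 0.931). Matricellular proteins, which signal to cells from the matrix, counted 5 higher and 0 lower of 16 tested (median 0.79), but 2 without ZK191784 library 1 or 2 or BGP library 3 and 3 without ZK191784 library 3 or BGP library 1. Thbs2, a thrombospondin, stood at 198, 178 and 198 CPM with BGP and 502, 478 and 443 CPM with ZK191784 (1.31 ± 0.13, adjusted p = 0.000130), a call that held whichever library was left out, as did that of Sparc. The tenascin genes Tnc and Tnn rose by 2.57 ± 0.60 and 1.89 ± 0.38, calls that were lost when any 1 of the 6 libraries was left out (adjusted p from 0.0519 to 0.143) and without ZK191784 library 1 or 2 or BGP library 3 (adjusted p from 0.0599 to 0.0781). Ccn4, which encodes a Wnt-induced matrix protein, was the other member called (1.31 ± 0.32), lost without ZK191784 library 1 or 2 or 3 or BGP library 1 or 3 (adjusted p from 0.0559 to 0.195).

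Hyaluronan genes were called in both directions, 3 higher and 1 lower of 13 tested. The number higher was 1 without ZK191784 library 1 or 2 or BGP library 3. Has2, the main hyaluronan synthase of mesenchymal cells, was counted 1, 3 and 3 times in the BGP libraries and 34, 43 and 28 times in the ZK191784 libraries. The ratio of the group sums was 14.8 (95% counting interval 6.92 to 37.6), and the fitted difference 3.84 ± 0.46 (adjusted p = 0.000535); such intervals cover counting error only. Cemip, whose product breaks hyaluronan down, moved the other way, from 16.8, 25.9 and 18.1 CPM with BGP to 4.71, 2.17 and 1.09 CPM with ZK191784, and fell by 2.91 (SE 0.41, adjusted p = 0.00149). The calls of Has2 and Cemip held whichever library was left out, whereas the rises of the hyaluronan receptor gene Cd44 (0.90 ± 0.18) and the link protein gene Hapln1 (2.06 ± 0.43) did not: Cd44 was lost without ZK191784 library 1 or 2 or BGP library 2 or 3 (adjusted p from 0.0561 to 0.0790) and Hapln1 without ZK191784 library 1 or 2 or BGP library 1 or 3 (adjusted p from 0.0629 to 0.0925). Of 27 metalloproteases and inhibitors tested 2 were higher, Adam12 (1.25 ± 0.24) and Adamts18, and 0 lower. This was 7.41%, against 3.25% over all genes tested. Leaving out 1 library gave 0 to 1 higher and 0 to 2 lower. Adam12 was lost without ZK191784 library 2 or BGP library 1 or 3 (adjusted p from 0.0515 to 0.0746). Adamts18 had 0 counts with BGP and 6, 4 and 7 with ZK191784, which, set against a floor of 3 counts for the whole group, is a level at least 5.58-fold higher (lower 95% counting limit 4.06), a call lost when any 1 of the 6 libraries was left out (adjusted p from 0.0683 to 0.118). Mmp13, the collagenase of mineralizing osteoblasts, differed by 0.44 ± 0.45 and was not called.

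Genes of mineralization and phosphate transport split between the groups, with 4 higher and 2 lower of 15 tested and a median of −0.04 on the log2 scale. The number higher was 2 without ZK191784 library 1 or BGP library 3, and the number lower 1 without ZK191784 library 1 or 2 or 3 or BGP library 2 or 3. Enpp1, whose product makes the mineralization inhibitor pyrophosphate, stood at 26.4, 33.8 and 29.5 CPM with BGP and 8.39, 10.6 and 10.0 CPM with ZK191784. Its BGP libraries were above all 9 other libraries of the series, those of 25(OH)D alone included (24.1, 15.2 and 16.6 CPM), and it fell by 1.63 (SE 0.26, 3.09-fold, adjusted p = 0.00384). Against 25(OH)D alone Enpp1 differed by −0.945 ± 0.26 with ZK191784 and by 0.68 ± 0.25 with BGP. Neither of these differences was called by edgeR. Ank, which carries pyrophosphate out of the cell, was the other lower member (−0.88 ± 0.21), a call lost without ZK191784 library 1 or 2 or 3 or BGP library 2 or 3 (adjusted p from 0.0658 to 0.174). Anxa2 and Anxa6, annexins of the matrix vesicles in which mineral starts, rose by 1.34 ± 0.18 and 0.93 ± 0.15 (adjusted p = 0.00121 and 0.00460), and both held whichever library was left out. Smpd3, a sphingomyelinase needed for bone mineral, rose by 1.69 ± 0.34, a call lost without ZK191784 library 1 or 2 or BGP library 2 or 3 (adjusted p from 0.0663 to 0.0922). The fourth higher member, Slc37a3 (0.89 ± 0.18), was lost without ZK191784 library 1 or BGP library 1 or 3 (adjusted p from 0.0663 to 0.0761). The phosphate importers Slc20a1 and Slc20a2 differed by −0.37 ± 0.23 and −0.57 ± 0.49 and were not called.

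Fgf23 itself was too rare for the test across genes. It was counted 7, 4 and 7 times in the BGP libraries and 0, 1 and 1 times in the ZK191784 libraries, with 1, 3 and 3 counts with 25(OH)D alone and 0, 1 and 0 in control. The 2 groups did not overlap, with 18 counts in sum against 2, a ratio of 9.14 (95% counting interval 2.19 to 81.2) in favour of BGP. The exact permutation test gave p = 0.1 (2-sided), the smallest value that 3 against 3 libraries allow. Of 16 tested genes that regulate or process FGF23, 1 was higher and 2 lower. Fam20c, the kinase that phosphorylates FGF23, was at 267, 216 and 225 CPM with BGP and 103, 102 and 103 CPM with ZK191784 and fell by 1.20 (SE 0.19, adjusted p = 0.00296). Enpp1 was the other lower gene, and Pth1r, the parathyroid hormone receptor, the higher one (0.54 ± 0.11), a call lost when any 1 of the 6 libraries was left out (adjusted p from 0.0541 to 0.0830). Galnt3, which protects FGF23 from cleavage, was at 7.50 ± 2.07 against 7.45 ± 1.83 CPM and not called (0.02 ± 0.41, 95% interval −0.93 to 0.97); its sign changed with the scaling. Phex, mutated in X-linked hypophosphataemia, stood at 4.77, 1.93 and 2.31 CPM with BGP and 10.8, 9.16 and 6.96 CPM with ZK191784, and Dmp1, an osteocyte matrix phosphoprotein, at 7.01, 13.5 and 10.0 against 3.48, 4.10 and 3.48 CPM. In both the groups were wholly apart, in opposite directions, but neither was called (1.61 ± 0.47, adjusted p = 0.0995, and −1.47 ± 0.46, adjusted p = 0.136). Phex was called by DESeq2 (adjusted p = 0.0237), without the low-count filter and with the ribosomal ratio in the model. Of 16 osteocyte markers tested 1 was higher, Cd44, and 3 were lower: Dstn, which encodes the actin-severing destrin (−1.005 ± 0.18), Fam20c, and Fbln7, a fibulin (−1.46 ± 0.34). Without ZK191784 library 1 only 1 was lower. Dstn was lost without ZK191784 library 1 (adjusted p = 0.0530) and Fbln7 without ZK191784 library 1 or 2 or BGP library 1 or 2 or 3 (adjusted p from 0.0762 to 0.182).

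The vitamin D receptor gene was not called. Vdr stood at 298, 369 and 303 CPM with BGP and 381, 392 and 373 CPM with ZK191784, a difference of 0.24 ± 0.16 (95% interval −0.13 to 0.61, adjusted p = 0.788), while control held 50.8, 70.6 and 61.9 CPM. The ZK191784 libraries were all slightly above the BGP libraries. Cyp24a1, the 24-hydroxylase that breaks vitamin D down and a classical target of the receptor, was counted 5, 22 and 14 times with BGP and 0, 2 and 1 times with ZK191784. The ratio of sums was 13.9 (95% counting interval 4.43 to 70.1) in favour of BGP with no overlap between libraries, yet the gene was not called (adjusted p = 0.147), except without the low-count filter and with the ribosomal ratio in the model. Cyp27b1, which makes the active hormone, had 4 counts in each group, and Cyp2r1, the main 25-hydroxylase, had 13 with BGP and 17 with ZK191784 (exact permutation p = 1 and 0.5). Cyp27a1, another 25-hydroxylase, differed by −0.24 ± 0.52 (adjusted p = 1.000). Of 13 genes of vitamin D metabolism and receptors tested, 0 were higher and 2 lower. Dhcr7, which draws the vitamin D precursor 7-dehydrocholesterol into cholesterol, went from 95.7, 114 and 93.3 CPM to 32.1, 33.8 and 38.9 CPM and fell by 1.53 (SE 0.17, adjusted p = 0.000289). Por, the electron donor of cytochrome P450 enzymes, fell by 0.70 (SE 0.14), a call lost without ZK191784 library 1 or 2 or 3 or BGP library 1 or 3 (adjusted p from 0.0578 to 0.0851). Of 22 vitamin D response genes tested 1 was higher, Runx2, and 3 lower, Spp1, Enpp1 and Cebpb. Cebpb, a transcription factor that binds the C/EBP letters, stood at 1084, 1275 and 1231 CPM with BGP and 764, 684 and 639.7 CPM with ZK191784 and fell by 0.78 (SE 0.13, adjusted p = 0.00575). Tnfrsf11b, which encodes the osteoclast inhibitor osteoprotegerin, was at 9.03 ± 4.67 CPM with BGP and 21.9 ± 5.15 CPM with ZK191784. It was not called (1.27 ± 0.44, adjusted p = 0.205). Its counterpart Tnfsf11, RANKL, had 7 counts with BGP and 2 with ZK191784 (exact permutation p = 0.4).

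The complement gene C3 and several chemoattractant and acute-phase genes were among those that fell. C3, the central complement protein, stood at 433, 390.3 and 451 CPM with BGP and 2.66, 7.47 and 8.26 CPM with ZK191784. The groups were wholly apart, with 25(OH)D alone at 593, 851 and 806 CPM and control at 1.20, 1.48 and 0.238 CPM, and C3 fell by 6.12 on the log2 scale (SE 0.40, 69.4-fold, adjusted p = 4.57e-06). Of 15 complement genes tested C3 was the 1 lower, and Masp1, a protease of the lectin pathway, the 1 higher, from 101, 94.4 and 101 CPM to 293, 281 and 268 CPM (1.504 ± 0.13, adjusted p = 3.91e-05). The median of the complement list was 0.32, with 11 of the 15 above 0. Of 11 chemokine and cytokine genes tested 4 were lower and 0 higher. Cmklr1, the receptor of the chemoattractant chemerin, had 30, 20 and 51 counts with BGP and 2, 1 and 0 with ZK191784 (ratio 34.2 (95% counting interval 11.4 to 169), adjusted p = 0.00100), and Rarres2, which encodes chemerin, fell by 2.06 (SE 0.46), a call lost without ZK191784 library 1 or 2 or 3 or BGP library 1 or 3 (adjusted p from 0.0517 to 0.144). Outside this list Ccrl2, a receptor that binds chemerin without signalling, went from 29.4, 47.1 and 29.3 CPM to 4.09, 1.21 and 0.870 CPM and fell by 4.06 (SE 0.58, adjusted p = 0.00164). Il34 and Cxcl12, cytokine genes that act on osteoclast precursors, stood at 129.7 ± 10.2 and 448 ± 154 CPM with BGP and at 37.5 ± 2.64 and 120.1 ± 9.19 CPM with ZK191784. They fell by 1.79 and 1.90 (SE 0.19 and 0.28), and were the 2 genes called, both lower, of 11 of osteoclast regulation.

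Of 9 acute-phase plasma protein genes tested 3 were lower and 1 higher. Hp, which encodes the haemoglobin-binding haptoglobin, stood at 2994, 3042 and 3088 CPM with BGP and 1057, 982 and 986 CPM with ZK191784, and fell by 1.59 (SE 0.18, adjusted p = 0.000436). Orm3 and Orm2, orosomucoid genes whose reads may be split between close copies, fell by 2.57 (SE 0.25) and 2.03 (SE 0.42), the latter a call lost without ZK191784 library 1 or 2 or 3 or BGP library 2 (adjusted p from 0.0585 to 0.0942). Cp, the copper carrier ceruloplasmin, rose by 1.02 ± 0.18 (adjusted p = 0.00777). Of the other falls, that of Lrtm2 was the largest by fit: this gene of a leucine-rich membrane protein had 89, 246 and 221 counts with BGP and 1, 0 and 1 with ZK191784, a ratio of 282 (95% counting interval 77.8 to 2337) (adjusted p = 3.91e-05). Hsd11b2, the enzyme that inactivates glucocorticoids, had 12, 50 and 32 counts against 1, 0 and 0 (ratio 95.5 (95% counting interval 16.7 to 3811), adjusted p = 0.00355), in cells that all received dexamethasone. It was the 1 gene called of 16 in glucocorticoid metabolism and response. Gprc5a, an orphan receptor gene, went from 302, 227 and 229.7 CPM to 12.1, 10.4 and 8.91 CPM and fell by 4.59 (SE 0.25), Galnt15, a glycosyltransferase gene, by 3.85 (SE 0.33), and Inmt, an indolethylamine N-methyltransferase gene, by 3.74 (SE 0.24). Inmt had 0 counts in all 3 control libraries, 645, 959 and 715 CPM with BGP and 61.4, 70.6 and 41.5 CPM with ZK191784, so that its ZK191784 libraries were above control and below the rest. The keratin gene Krt17 had 143 counts with BGP and 10 with ZK191784 (ratio 14.5 (95% counting interval 7.67 to 30.9)), and Hgd, of tyrosine breakdown, 54 against 2 (ratio 27.4 (95% counting interval 7.23 to 232)), a call lost without ZK191784 library 1 or 2 or BGP library 2 or 3 (adjusted p from 0.0566 to 0.113).

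Car3, a carbonic anhydrase gene, was among the 10 largest rises. It stood at 20.5, 21.2 and 17.0 CPM with BGP and 214, 234 and 186 CPM with ZK191784, 10.8-fold higher (3.43 ± 0.19, adjusted p = 1.15e-06). Its ZK191784 libraries overlapped the range of the control libraries (186, 207 and 261 CPM). Prss35, a serine protease gene, had 7 counts with BGP and 175 with ZK191784 (ratio 24.6 (95% counting interval 11.7 to 62.1)), Vipr2, a receptor of vasoactive intestinal peptide, 4 against 57 (ratio 14.03 (95% counting interval 5.19 to 53.2)), and Ngef, a guanine exchange factor, 2 against 42 (ratio 20.7 (95% counting interval 5.38 to 176)). The calls of Prss35 and Vipr2 held whichever library was left out, while that of Ngef was lost when any 1 of the 6 libraries was left out (adjusted p from 0.0534 to 0.196) and that of the olfactory receptor gene Olfr1281 (3.81 ± 0.80) without ZK191784 library 1 or 2 or BGP library 1 or 2 or 3 (adjusted p from 0.0557 to 0.0911). Cpe, a carboxypeptidase of prohormone processing and 1 of the 6 called genes with the highest level, rose by 0.55 ± 0.11, a call lost without ZK191784 library 1 or 2 or 3 or BGP library 2 or 3 (adjusted p from 0.0518 to 0.0998).

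Igfbp5, an IGF-binding protein of bone matrix, stood at 1325, 2730 and 1746 CPM with BGP and 238, 166 and 148 CPM with ZK191784, and fell by 3.39 (SE 0.43, adjusted p = 0.000745); with Irs2 (−1.23 ± 0.29), lost without ZK191784 library 1 or 2 or 3 or BGP library 2 or 3 (adjusted p from 0.0764 to 0.163), it made 2 lower and 0 higher of 14 in the insulin-like growth factor list. Of 36 genes of fatty acid and triglyceride metabolism 1 was higher and 2 lower. Dgat1, which makes triglycerides, went from 808, 907 and 795 CPM to 248, 243 and 272 CPM and fell by 1.72 (SE 0.15, adjusted p = 5.39e-05), and Scd1, the stearoyl-CoA desaturase, fell by 1.38 (SE 0.14). Scd1 and Cebpb were the 2 called, both lower, of 19 adipocyte regulators and markers tested. The summed level of all 32 on the list was 2009 to 2341 CPM with BGP and 1320 to 1495 CPM with ZK191784. Cebpb alone made up 1084 to 1275 CPM of the BGP sums and 639.7 to 763.6 CPM of the ZK191784 sums. The defining adipocyte genes Adipoq and Pparg were too rare to be tested, at 0.837 ± 0.450 and 0.558 ± 0.360 CPM with BGP. Of 24 cholesterol synthesis genes Dhcr7 was the 1 called (4.17%, against 3.25% over all genes tested).

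Itpr2, a calcium release channel of the endoplasmic reticulum, had the smallest adjusted p of all genes. It stood at 941, 1021 and 965 CPM with BGP and 155, 165 and 160.0 CPM with ZK191784, and fell by 2.61 (SE 0.11, adjusted p = 2.58e-07). The libraries of each group lay close together, with 25(OH)D alone at 1057, 1106 and 1014 CPM and control at 100.2, 94.0 and 94.0 CPM. The plasma membrane calcium pump gene Atp2b4 rose by 1.37 ± 0.17 (adjusted p = 0.000638), and these were the 2 called of 25 calcium-handling genes. In signalling lists, 2 of 37 BMP and TGF-beta genes were higher: Bmp8a, from 42.9, 47.5 and 43.2 to 93.3, 88.5 and 93.5 CPM (1.04 ± 0.14, adjusted p = 0.00121), and the BMP inhibitor gene Chrdl1 (1.09 ± 0.25), lost without ZK191784 library 1 or 3 or BGP library 1 or 3 (adjusted p from 0.0772 to 0.143). Of 31 Wnt genes 1 was higher, Rspo2, an enhancer of Wnt signals, with 86 counts against 9 (ratio 9.41 (95% counting interval 4.73 to 21.3)), a call lost without ZK191784 library 1 or 2 or BGP library 1 (adjusted p from 0.0663 to 0.0761). The share called in the Wnt list was 3.23%, against 3.25% over all genes tested. Of 34 immediate-early and ERK feedback genes 2 were higher, Ier3 (1.06 ± 0.12, adjusted p = 0.000289) and Klf4 (0.88 ± 0.17), and 3 lower, Dusp5 (−0.87 ± 0.18), Egr1 (−0.65 ± 0.15) and Nr4a3 (−1.70 ± 0.40). Ier3 held whichever library was left out; Klf4 was lost without ZK191784 library 3 or BGP library 2 or 3 (adjusted p from 0.0510 to 0.0550). The lower count was 0 without ZK191784 library 2 or BGP library 2 or 3 and 1 without ZK191784 library 1 or 3. Among 30 actin genes the tropomyosin Tpm1 rose by 1.12 ± 0.12 (adjusted p = 0.000275) and Cnn3 by 0.74 ± 0.14, lost without ZK191784 library 2 or BGP library 1 (adjusted p from 0.0532 to 0.0550), while Dstn and Myh10 (−0.63 ± 0.15) were lower, Myh10 lost when any 1 of the 6 libraries was left out (adjusted p from 0.0660 to 0.208).

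In the stress lists, 1 of 25 p53, arrest and apoptosis genes was higher, Gadd45g, from 12.9, 12.8 and 11.6 CPM to 33.0, 34.0 and 32.0 CPM (1.41 ± 0.20, adjusted p = 0.00150), and 2 were lower, Gadd45b (−1.36 ± 0.28) and Gdf15 (−1.38 ± 0.27). Gadd45b was lost without ZK191784 library 1 or 2 or 3 or BGP library 2 or 3 (adjusted p from 0.0530 to 0.0976) and Gdf15 without ZK191784 library 1 or 2 or BGP library 3 (adjusted p from 0.0578 to 0.0765). Of 28 unfolded protein and integrated stress response genes Psat1 was higher (0.81 ± 0.18) and Ppp1r15a lower (−1.76 ± 0.39), lost when any 1 of the 6 libraries was left out (adjusted p from 0.0550 to 0.142) and without ZK191784 library 1 or 2 or 3 or BGP library 2 or 3 (adjusted p from 0.0566 to 0.124) respectively, and of 20 oxidative stress genes Gstm1 was higher (0.96 ± 0.23), lost without ZK191784 library 1 or 2 or 3 or BGP library 1 or 3 (adjusted p from 0.0618 to 0.184). No member was called by edgeR in 6 lists: 27 genes of glycolysis and hypoxia, 37 of DNA replication and mitosis, 29 of the interferon response, 9 macrophage and osteoclast markers, 5 endothelial markers and 2 myogenic markers. At the 3.25% called over all genes tested, lists of such sizes would hold few calls or none. The shares of the oxidative stress list (5%) and the BMP and TGF-beta list (5.41%) were also near it. The median log2 difference was 0.12 for the interferon list and 0.19 for the replication list. As these lists were chosen with earlier results of these data known, their counts describe them and test nothing.

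**Figure D3:**
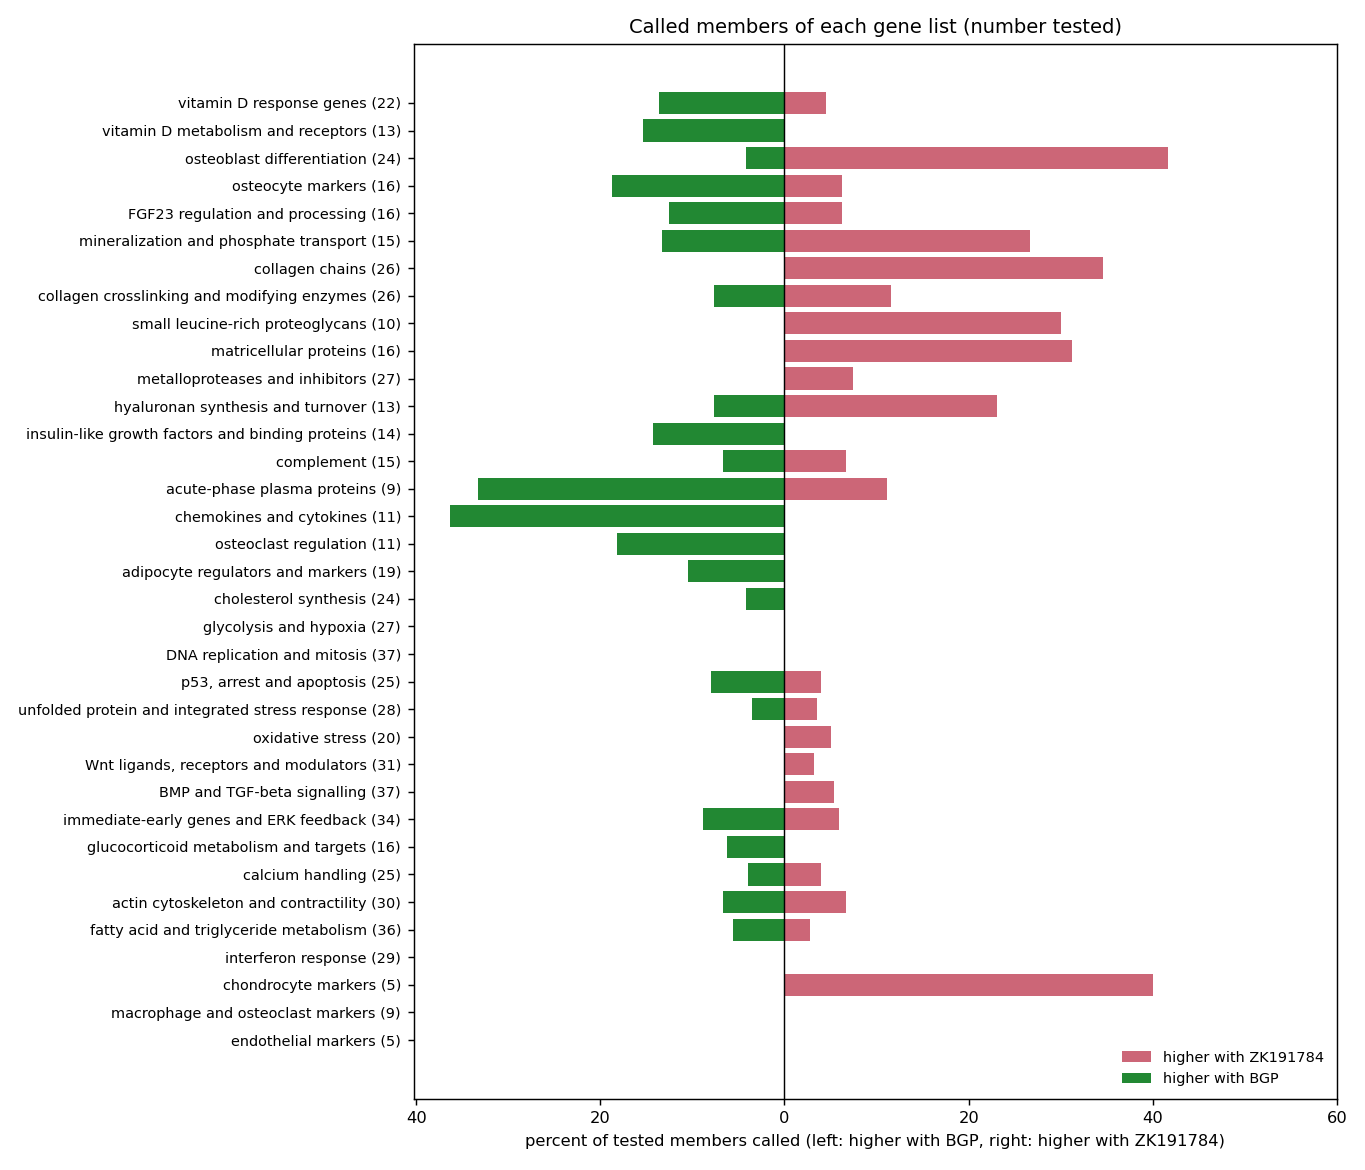
Bars give, for each gene list with at least 5 tested members (number in brackets), the percent of tested members called higher with ZK191784 (right) or higher with BGP (left); over all genes tested the share was 3.25% for both directions together. Collagen chains, matricellular proteins and proteoglycans have calls on the right alone, and chemokines and cytokines on the left alone.

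The libraries of control and of 25(OH)D alone are in neither group compared, though they shared the fit that set the scaling, the filter and the spread. They give the response to 25(OH)D itself. In them 25(OH)D changed 1250 of the 14394 genes (8.68%), 685 higher (4.76%) and 565 lower (3.93%). Of the 231 genes higher with ZK191784 than with BGP, 191 (82.7%) had been lowered by 25(OH)D against control, and of the 237 lower genes 220 (92.8%) had been raised by it. Read from the other side, these were 33.8% of the 565 genes that 25(OH)D lowered and 32.1% of the 685 that it raised. Only Fap, which encodes fibroblast activation protein, was called in the same direction in both, and 56 genes were called in the ZK191784 and BGP comparison alone. Of the 468 called genes 465 (99.4%) had differences of opposite sign in the 2 comparisons, against 67.1% of all genes tested; the exceptions were Fap, Pik3r1 and Ggt5. With the 6 libraries of ZK191784 and BGP fitted alone, 447 genes were called, and 374 of the 468 calls remained of the 463 that were tested there. With separate fits on 6 libraries each 353 genes were called in opposite directions, against 411 in the shared one.

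For 459 of the 468 called genes (98.1%) the mean of 25(OH)D alone lay nearer to the BGP mean than to the ZK191784 mean on the log2 scale, against 63% of all genes tested. For 456 (97.4%) the control mean lay nearer to the ZK191784 mean, against 64.5% of all. The size of the difference was taken in genes that 25(OH)D had changed at least 4-fold, which were chosen on the libraries of control and 25(OH)D alone. There were 340 of them, 173 were called here, and in 336 the sign was opposite. Divided by the difference between 25(OH)D and control, the difference between BGP and ZK191784 had a median of 0.557 on the log2 scale (quartiles 0.417 and 0.723). For the 200 raised genes the median was 0.529 and for the 140 lowered ones 0.624, and in 16 of the 340 the difference exceeded that of 25(OH)D itself. The genes were chosen by the size of the divisor, which can make the divisor too large and these quotients too small. In raised genes with few control counts, such as C3 (13 in sum), the divisor also rests on the fit. The quotients are therefore no exact measure of how far the response differed.

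A 95% interval of the difference that stayed within 2-fold was found for 3 of the 340 genes. These were Vdr, Fdxr, which passes electrons to mitochondrial cytochrome P450 enzymes (108, 106 and 102 CPM with BGP and 67.3, 84.1 and 77.0 CPM with ZK191784, −0.47 ± 0.15), and Ramp1, a partner of the calcitonin-like receptor (0.32 ± 0.26). Fdxr was lower in all 3 ZK191784 libraries but was not called (adjusted p = 0.166). Against 25(OH)D alone, edgeR called the ZK191784 difference of Fdxr (−0.72 ± 0.16, adjusted p = 0.0217) and of Ramp1 (1.15 ± 0.27, adjusted p = 0.0358). That of Vdr was −0.06 ± 0.16 and not called. The BGP mean of Ramp1 was also above that of 25(OH)D alone (35.9 against 20.2 CPM), a difference not called. The plot of both comparisons shows most called genes along a falling diagonal, with Vdr close to 0 on one axis.

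**Figure D4:**
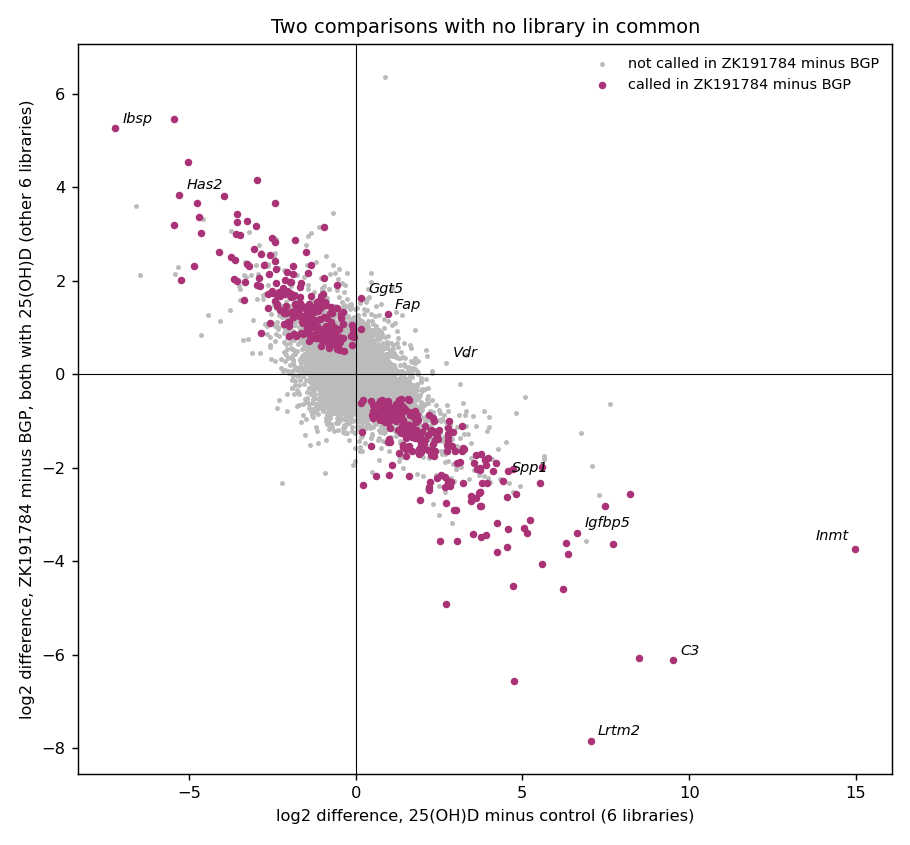
Each point is 1 of the 14394 genes tested; the x axis gives the log2 difference of 25(OH)D minus control and the y axis that of ZK191784 minus BGP in the other 6 libraries, with the 468 genes called on the y axis in colour. Called genes lie at the upper left and the lower right apart from Fap, Ggt5 and Pik3r1, and the x value of Inmt, which had 0 counts in control, rests on the fit and is no measure of size.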

How the data were processed

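The deposited values were raw whole-number counts per gene, made by the authors from QuantSeq 3' mRNA libraries of TRIzol RNA. STAR 2.7.9a, featureCounts of Subread 2.0.3, DESeq2 1.38.2 and build mm39 are named, with no roles, per the submitters' processing notes; overlapping and antisense genes cannot be told apart, because the strand setting is not given in the sources used here.

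All 12 libraries were fitted together with edgeR 4.0.16 in R 4.3.3 (limma 3.58.1; TMM scaling; robust quasi-likelihood test; 1 coefficient a group). Of 56691 entries, 14394 passed the low-count filter (minimum count 10, minimum total 15) and held 99.4% of counts. Calls are adjusted p (Benjamini-Hochberg) under 0.05. SE is the absolute log2 difference over the square root of F, and intervals use 8 residual degrees of freedom. Rare genes were compared by exact permutation of libraries (2-sided), and count ratios have exact binomial intervals. Replicates differed by more than sampling noise, so none was merged. Scripts were tested on simulated counts with 100 planted differences of 2-fold and 100 of 4-fold. The test called 19% of the former and 65% of the latter, and 4 genes without a planted difference. A gene that was not called may therefore still differ by 2-fold or more. Figures used Python 3.11.15 with matplotlib 3.10.9.

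The comparison and the gene lists were chosen with earlier results of these data known. Named were 16 core genes, the 10 largest called rises and 10 largest called falls (mean log2 CPM of at least 1, no overlap between groups, no clone, Gm-numbered or pseudogene names), the 6 called genes of highest level, and up to 4 called members of each list by p. Genes named beyond this rule were chosen after their values were seen, and a few genes that met it are not reported here. Alternatives were DESeq2 1.42.0 and its size factors, other filters, the 6 libraries alone, a replicate block and leaving out each library; the ribosomal ratio as a covariate was chosen after seeing the data.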

Additional observations from a re-analysis of the deposited data

How the results depend on the processing

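None of the 468 calls, 463 of which were tested with the 6 libraries alone, changed direction under any alternative. Counts stayed within 1.5 times with RLE scaling (481), DESeq2 (661), the 6 libraries alone (447), no filter on low counts (597) and a minimum of 2 CPM in 3 libraries (482). The ribosomal ratio as a covariate gave 1603, and for 25(OH)D against control 2857. That comparison gave 763 when its 6 libraries were fitted alone. Genes called in opposite directions in both comparisons numbered 411, and 1244 with the covariate. Leaving out 1 library gave from 234 (ZK191784 library 2) to 379 (BGP library 1) calls. The cause of these shifts was not tested.

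Replicate numbers did not pair the libraries: deviations of same-numbered libraries correlated at −0.75, −0.04 and 0.01 over 9452 genes, and those of differently numbered libraries at −0.73 to 0.76, highest for ZK191784 library 3 with BGP library 1 and ZK191784 library 1 with BGP library 2 (both 0.76). A replicate block gave 304 calls, 303 of them among the 468.

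Galnt3, near 0, changed sign: −0.0025 with RLE scaling, −0.0017 with DESeq2, −0.0693 with the covariate, −0.0121 with 6 libraries alone, and from −0.22 to 0.20 with 1 library left out. Cyp27a1 ran from −0.74 to 0.0244, above 0 without ZK191784 library 1. Of the named genes that were not called, the covariate called Alpl, Bglap, Cyp24a1, Dmp1, Phex and Tnfrsf11b, no low-count filter Cyp24a1, Phex and Tnfrsf11b, DESeq2 Alpl, Bglap and Phex, and the 6 libraries alone Bglap. Of 93 named genes, some of which had no call to lose, 17 to 30 lost their call with 1 library left out. Depth limits the rare genes: Fgf23 had 18 counts with BGP and 2 with ZK191784, and its ratio of ZK191784 to BGP ran from 0.0786 to 0.171 with 1 library left out.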

Other observations

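A small set of genes placed the ZK191784 libraries outside all 9 other libraries of the series, control included. All genes below were chosen after their values were seen. Of the called genes 14 lay above all others, where 56 of the 14394 tested did so, and 8 lay below, where 40 did. Crispld2, which encodes a secreted protein that glucocorticoids are known to raise, stood at 20.2, 9.21 and 12.5 CPM with BGP and 108, 96.9 and 98.7 CPM with ZK191784, with 12.0, 13.5 and 12.2 CPM for 25(OH)D alone and 39.3, 54.2 and 40.9 CPM for control (2.87 ± 0.25, edgeR adjusted p = 5.12e-05). Tns1, which encodes the focal adhesion protein tensin, stood at 1029, 1016 and 1025 CPM with BGP and 2189, 2150 and 2007 CPM with ZK191784 (1.05 ± 0.13, adjusted p = 0.000702), and Olfml3, a secreted matrix gene, at 46.3, 68.9 and 45.1 CPM with BGP and 166, 144 and 115 CPM with ZK191784 (1.41 ± 0.22, adjusted p = 0.00278). Pik3r1, the regulatory subunit of PI3-kinase, rose by 0.95 ± 0.15 against BGP and differed by 0.15 ± 0.15 between 25(OH)D and control. Fap rose by 1.29 ± 0.21 against BGP, and 25(OH)D had already raised it against control, by 0.96 ± 0.22. Rin1, a Ras effector gene, lay below all others at 8.19, 7.71 and 7.39 CPM, with 23.8, 18.2 and 22.0 CPM for BGP and 10.8, 12.0 and 12.6 CPM for control (−1.45 ± 0.24, adjusted p = 0.00432). These 6 calls held whichever library was left out.

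On the side of BGP, 6 called genes lay above all 9 other libraries, where 51 of all tested did so, and 32 lay below, where 114 did. Clint1, an adaptor of clathrin vesicles, stood at 477, 489.7 and 477 CPM with BGP and 208, 209.7 and 235 CPM with ZK191784, with 396, 428 and 460.1 CPM for 25(OH)D alone. Prkg2, a cGMP-dependent kinase of cartilage and bone growth, stood at 35.9, 70.4 and 64.8 CPM with BGP and 16.0, 13.7 and 8.04 CPM with ZK191784, with 35.0, 27.0 and 20.3 CPM for 25(OH)D alone (−2.18 ± 0.32, adjusted p = 0.00224). Against 25(OH)D alone, which shares no library with either arm but serves both differences, Prkg2 differed by 1.06 ± 0.31 with BGP (adjusted p = 1.000) and by −1.12 ± 0.32 with ZK191784 (adjusted p = 0.0908), neither of them called. Clint1 differed by 0.17 ± 0.14 (adjusted p = 1.000) and −0.98 ± 0.14 (adjusted p = 0.00168), of which the difference with ZK191784 was called. Called genes with an unadjusted p of at least 0.5 between 25(OH)D and control were Ggt5, Haus1, Micall1, Pgm2, Wdr59, Podnl1 and Nav2; of these the call of Ggt5, a gamma-glutamyltransferase (1.63 ± 0.27), held whichever library was left out.

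Among abundant genes (mean log2 CPM of at least 4), 10 differed at least 4-fold without being called, 2 higher and 8 lower with ZK191784. Plekhh2 stood at 99.3, 98.5 and 57.7 CPM with BGP and 48.9, 20520 and 276 CPM with ZK191784, so that 1 ZK191784 library holds nearly all its counts (6.35 ± 1.79, adjusted p = 0.0917). Mgp, the matrix Gla protein that inhibits mineral growth, stood at 1174, 3291 and 2728 CPM with BGP and 766, 495 and 325 CPM with ZK191784 and missed the threshold (−2.18 ± 0.54, adjusted p = 0.0512). Ccn2, a matricellular growth factor gene, stood at 12.9, 147 and 42.0 CPM with BGP and 19.0, 6.99 and 7.61 CPM with ZK191784 (−2.58 ± 0.98, adjusted p = 0.271).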
